A study of Mus musculus with 6 samples.

Results

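The genes described here encode the proteins of the cytosolic ribosome. They were taken from the deposited table of 14003 mouse genes by name: symbols that begin with Rpl or Rps and a number, or with Rplp0, Rplp1 or Rplp2, leaving out the Rps6k kinases. This rule found 88 genes. Of these, 76 are the standard ribosomal protein genes (46 of the large subunit and 30 of the small), 5 are paralogues (Rpl7l1, Rpl22l1, Rpl36al, Rps27l and Rps27rt), and 5 carry pseudogene names. The remaining pair, Rps19bp1 and Rps23rg1, match the name rule but encode no ribosomal protein.

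RNA was sequenced from wild-type cells labelled MC3T3-E1, a preosteoblast line derived from mouse calvaria. Sulfasalazine, an anti-inflammatory drug and an inhibitor of the cystine transporter, was given at 200 µM for 24 h to 3 samples, and 3 control samples were left untreated. The title of the series links the drug to the TNF receptor, NF-kB and fracture repair, but no TNF is listed among the agents given, and no vehicle is named. All 6 samples share the line, the medium and 1 labelled batch. Whether replicates were separate cultures is not stated, so every p-value here reflects spread among these 6 samples that could be purely technical.

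Ribosomal proteins bind ribosomal RNA in a fixed stoichiometry, each in 1 copy per ribosome apart from the acidic stalk proteins. Their messages are among the most abundant in a growing cell. Most begin with a 5′ terminal oligopyrimidine tract (TOP), a cytosine at the cap followed by an unbroken run of pyrimidines, through which mTORC1 and the RNA-binding protein LARP1 control their translation and stability. Proteins made in excess of the others are degraded, and the free pair Rpl5 and Rpl11, bound to 5S RNA, can inhibit the p53 ligase Mdm2. Osteoblasts that make bone matrix depend on high ribosome output.

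The tract is printed for 8 genes because members that rose and members that fell both carry it, and the 8 were picked after their values were seen. The sequences are from RefSeq on GRCm38.p6, run 5′ to 3′ on the gene's strand, and show the longest run of pyrimidines starting with C within 50 bases of the annotated start, in capitals. The first 4 genes rose with sulfasalazine and the last 4 fell.
Rpl37a (chr1:72711274-72711303, plus strand): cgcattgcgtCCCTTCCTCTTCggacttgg
Rps27 (chr3:90213631-90213660, minus strand): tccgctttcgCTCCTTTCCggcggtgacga
Rpl31 (chr1:39367823-39367852, plus strand): cctcgccacaCCTCTTCCTCCTCgcctccc
Rpl11 (chr4:136053360-136053389, minus strand): ggccggaagtCTCCCTCTCTCTTCCTgttc
Rpl13a (chr7:45128724-45128753, minus strand): tgcgacaagaCCTCCTCCTTTCCCaggcgg
Rpl5 (chr5:107900498-107900527, plus strand): cctacagccaCTCTTTCTCacgtcgcttgc
Rps6 (chr4:86857349-86857378, minus strand): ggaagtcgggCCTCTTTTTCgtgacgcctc
Rpl18 (chr7:45718062-45718091, plus strand): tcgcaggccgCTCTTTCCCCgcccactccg

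Of the 76 standard genes, 56 had an entry in the RefSeq promoter table, with 66 promoters in all. A tract of at least 8 bases lay within 50 bases of the start in 54 of the 66 promoters (81.8%), against 28.8% of all 32851 promoters. The tract runs on the sense strand only, and annotated starts can lie some way from the base at the cap. The motif CCGGAAG, the core of ETS family sites, was found on either strand in 36.4% of the members' promoters (250 bases before to 50 after the start), against 8.86% of all promoters. GGGCGG, the core of SP1 sites, stood in 60.6% against 35.7%. AAGATGG, the core of YY1 sites, which can overlap CCGGAAG, stood in 16.7% against 6.34%, and the E-box CACGTG in 12.1% against 7.15%. The TATA box TATAAA was found in 9.09% against 13.6%. These matches describe letters in the window and not bound sites.

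Genes with the tract were found among the rises and among the falls. For comparison, 66.5% of all genes tested were called, 37.2% higher and 29.3% lower with sulfasalazine. Among the 48 tested genes with a tract of at least 8 bases, 9 rose and 9 fell. Among the 7 with a promoter entry but no such tract, 4 rose and 1 fell. Of the 23 genes with CCGGAAG, 8 rose and 3 fell, and of the 32 without it 5 rose and 7 fell; neither difference was tested.

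Across the whole table, 15980935 to 21579133 reads per library were recovered from the FPKM values (fragment levels scaled for gene length and library depth). The groups separated on the first principal component, which held 88.6% of the variance. Of 8 osteoblast markers 5 were in the table, and Sp7, Col1a1 and Bglap had a mean below 1 FPKM. Alpl, Col1a2 and Ibsp were not analysed here. The summed FPKM of the 5 osteoblast markers came nearly all from Runx2 and Spp1. It ran from 1539 to 2098 in controls and from 869 to 1078 with sulfasalazine. Of 5 epithelial markers 4 were in the table (Krt8, Krt18, Krt19 and Cdh1). Their summed FPKM ran from 1293 to 1452 in controls and from 1884 to 2093 with sulfasalazine. Of 4 macrophage markers 2 were in the table (Cd68 and Csf1r), and Csf1r had a mean below 1 FPKM. The macrophage sum ran from 31.75 to 56.17 and from 16.31 to 27.7 and rests almost on Cd68 alone. These sums moved with the groups, and their part in the results on ribosomal proteins was not tested. In bulk RNA, fewer cells of a type and less RNA per cell cannot be told apart.

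The ribosomal protein genes did not move as one block. Of the 76 standard genes, 75 had at least 1 FPKM in at least 3 libraries and were tested, and 15 rose and 15 fell with sulfasalazine (limma on log2(FPKM + 1), Benjamini-Hochberg adjusted p under 0.05 over all 10338 genes tested). That is 40.0% of them called, against 66.5% of all genes tested, of which 37.2% rose and 29.3% fell. Their median log2 fold change was 0.00, with a lowest of -1.17 and a highest of 1.78. The median over all genes was 0.08. The median absolute log2 fold change was 0.34 for the standard ribosomal protein genes and 0.68 for all genes tested. Among all 1355 genes with a mean of at least 100 FPKM it was 0.66, and 70.3% of those were called. Of these 1355 genes 416 rose and 537 fell, with a median log2 fold change of -0.12. The groups did not overlap for 35 of the 75 genes, 17 with sulfasalazine above and 18 with the controls above, against 71.4% of all genes tested.

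**Figure D1:**
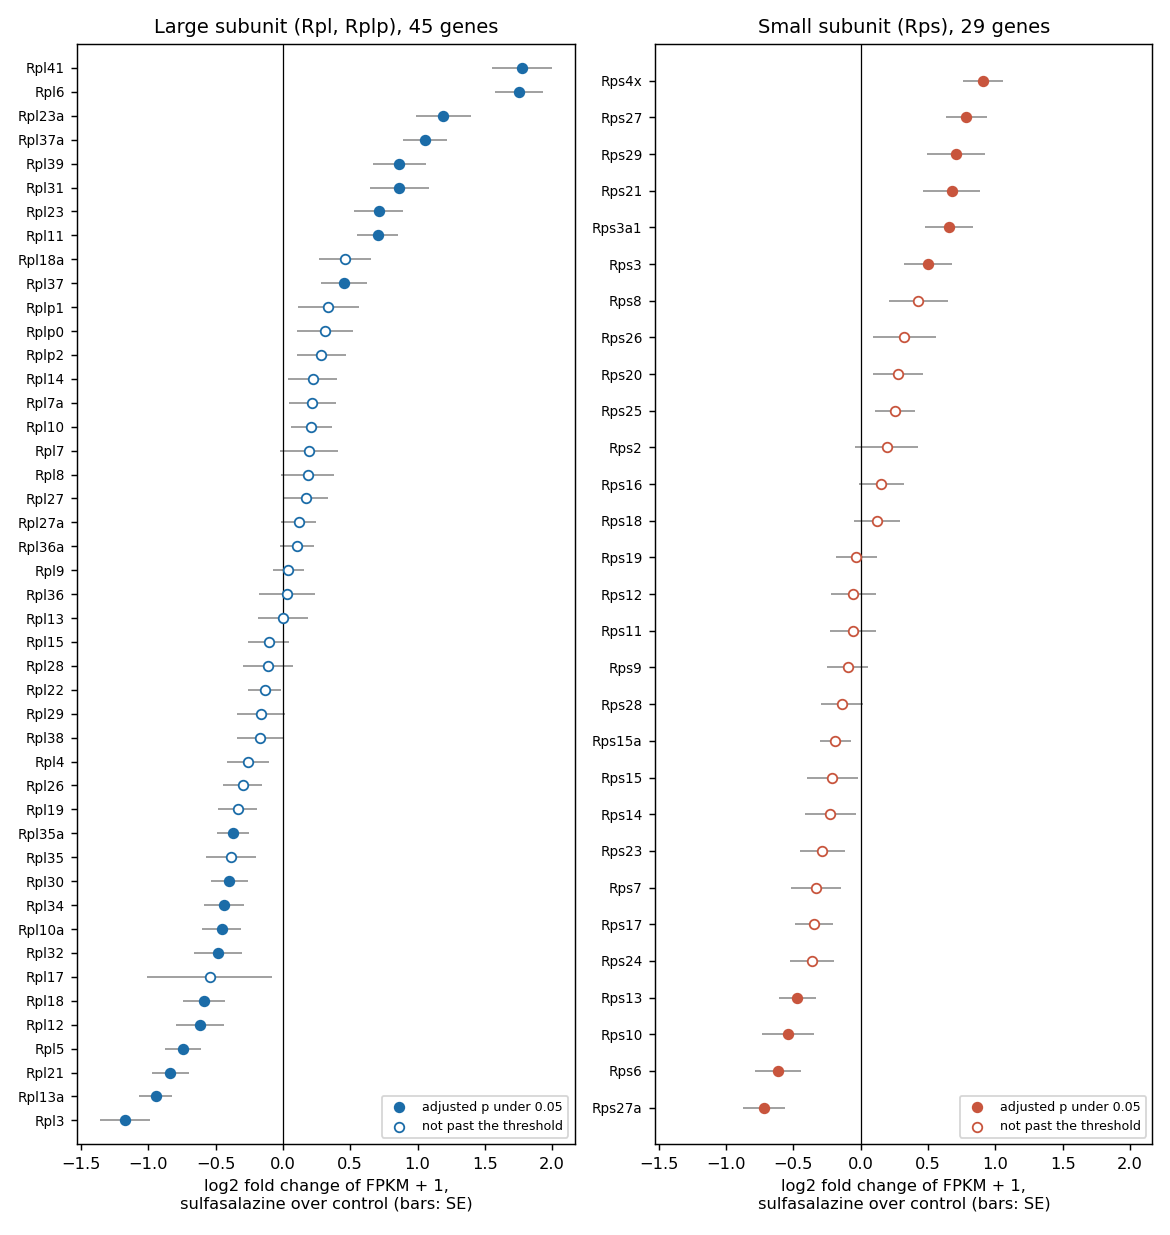
Log2 fold change (sulfasalazine over control, with its SE) of the tested standard ribosomal protein genes (1 of the 75 is not drawn), large subunit on the left and small subunit on the right, filled where the limma adjusted p was under 0.05. The filled points lie at both ends of each panel, 15 to the right of 0 and 15 to the left.

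The split of the calls moved with the scaling. Under median-of-ratios scaling 12 rose and 18 fell, and under quantile normalization 19 rose and 14 fell. The shares called were 40% and 44% of the standard genes, against 67.5% and 68.3% of all genes tested. These settings shifted the median of all genes by -0.099 and -0.11. Control replicate 1 was the lowest control for 70 of the 75 genes, and sulfasalazine replicate 3 the lowest treated library for 58. Without control replicate 1, 12 genes rose and 21 fell, 44% called against 61.2% of all genes tested. Without control replicate 2 the counts were 15 and 8, without sulfasalazine replicate 1 they were 11 and 8, and without sulfasalazine replicate 3 they were 15 and 9. In that order, 30.7%, 25.3% and 32% of the standard genes were called, against 58.3%, 54.9% and 61.2% of all genes tested. Across all 15 alternative fits, 19 of the 30 calls were kept every time, 11 rises and 8 falls. The rises were Rpl41, Rpl6, Rpl23a, Rpl37a, Rpl39, Rpl31, Rpl23, Rpl11, Rps4x, Rps27 and Rps3a1. The falls were Rpl3, Rpl13a, Rpl21, Rpl5, Rpl12, Rpl18, Rps6 and Rps27a.

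The total of ribosomal protein messages differed between the groups by less than the spread between libraries. The 88 genes together took 9.11%, 11.7% and 11.7% of all FPKM in control replicates 1, 2 and 3. With sulfasalazine they took 11.1%, 11.5% and 10.0%. The group means were 10.8% ± 1.49 and 10.9% ± 0.767 (SD, n = 3 per group). The ranges of the groups overlap, and control replicate 1 is the lowest of the 6 libraries. Counted in recovered reads the same genes held 5.54% ± 0.921 and 5.69% ± 0.504 of each library. Of the 76 standard genes, 73 had a mean of at least 100 FPKM and 30 of at least 1000 FPKM.

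The stalk is the flexible arm of the large subunit that recruits translation factors. Rplp0, which anchors it and is often used as a reference gene, measured 2594, 3345 and 3676 FPKM in control libraries and 4215, 4360 and 3340 FPKM with sulfasalazine (chromosome 5, 115559467 to 115563727 on GRCm38). The groups overlap, and the difference did not pass (limma log2 change 0.31 with SE 0.21, adjusted p 0.21; -0.28 under quantile normalization). Rplp1, an acidic stalk protein gene, stood at 1631, 2737 and 2679 FPKM and at 2839, 2958 and 2872 FPKM. Its partner Rplp2 stood at 586, 808 and 876 FPKM and at 945, 1003 and 791 FPKM. Neither passed (adjusted p = 0.21 and 0.19), although the treated libraries of Rplp1 all lay above its controls. Rpl12, whose protein sits at the stalk base, fell from 1289, 1632 and 1925 FPKM to 1093, 1100 and 935 FPKM. Every treated library lay below every control there (limma log2 change -0.62 with SE 0.18, adjusted p 0.015).

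**Figure D2:**
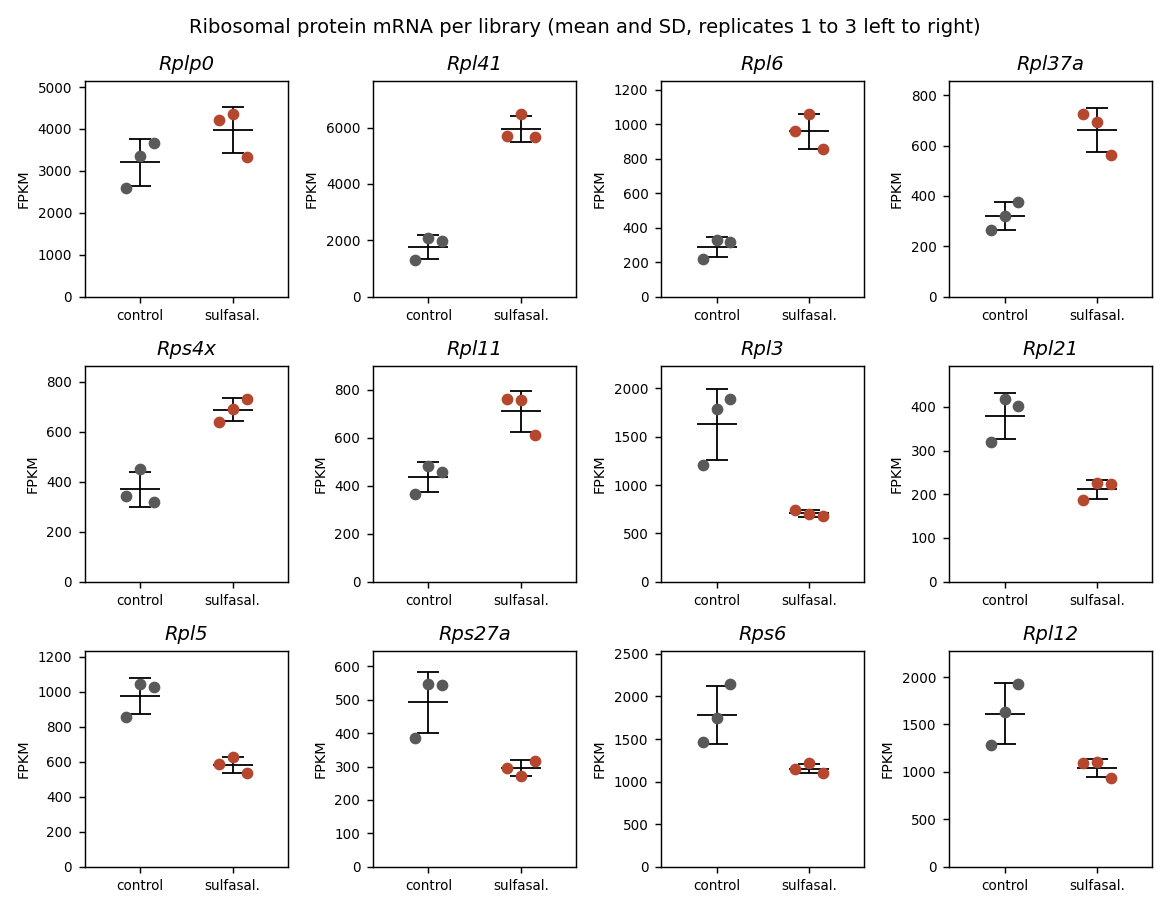
FPKM of 12 ribosomal protein genes in each library, replicates 1 to 3 from left to right, with the group mean and SD and every axis starting at 0. Rplp0 overlaps between groups, Rpl41, Rpl6, Rpl37a, Rps4x and Rpl11 lie higher with sulfasalazine, and the other 6 lie lower.

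Rpl5 and Rpl11, which join the ribosome together with 5S RNA, moved in opposite directions. Rpl5 fell from 857, 1044 and 1029 FPKM to 586, 626 and 534 FPKM (chromosome 5, 107900502 to 107909005). Rpl11 rose from 366, 484 and 460 FPKM to 762, 758 and 610 FPKM (chromosome 4, 136028265 to 136053428). Neither gene's groups overlap. The log2 fold changes were -0.74 (SE 0.13, limma adjusted p = 0.0014) and 0.70 (SE 0.15, adjusted p = 0.0038). Annotated exons of Rpl5 overlap those of other genes, mainly Fam69a on the opposite strand, over 26.7% of their bases, and 48.9% of all 50-base stretches (words) of the gene recur elsewhere in the transcriptome.

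Of the genes whose proteins border the peptidyl transferase centre, 1 of 3 was called, against 66.5% of all genes tested. Rpl3 measured 1206, 1784 and 1890 FPKM in control libraries and 746, 704 and 676 FPKM with sulfasalazine (chromosome 15, 80077791 to 80091868). This was the largest fall among the standard genes, from 1627 ± 368 to 708 ± 35.3 FPKM (SD, n = 3), a log2 fold change of -1.17 (SE 0.19, limma adjusted p = 0.00076). Rpl8 stood at 1398 ± 296 and 1568 ± 174 FPKM, and Rpl10, which is added late in maturation, at 1134 ± 156 and 1306 ± 96.5 FPKM. Those 2 genes did not pass.

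A list of 7 genes for proteins around the tunnel through which the new peptide leaves gave 2 rises and no fall. Called genes made up 28.6% here, against 66.5% of all genes tested. Rpl39, a very small protein in the tunnel wall, rose from 174, 279 and 300 FPKM to 459, 442 and 438 FPKM (limma log2 change 0.87 with SE 0.20, adjusted p 0.0049). Rpl23a, at the tunnel exit, rose from 428, 727 and 487 FPKM to 1282, 1314 and 1076 FPKM (log2 change 1.19 with SE 0.21). Exons of Rpl23a overlap other genes, mainly Tlcd1 on the opposite strand, over 62.3% of their bases and share 80.8% of their words, so its reads cannot be assigned with certainty. Rpl4, Rpl19, Rpl26 and Rpl35 had log2 fold changes from -0.39 to -0.26 and did not pass. Rpl17 was uneven within both groups, at 169, 338 and 357 FPKM in controls and 113, 391 and 148 FPKM with sulfasalazine (SE 0.46).

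The steepest rise among the 75 genes was that of Rpl41, which encodes a peptide of mostly basic residues at the interface of the subunits. It measured 1281, 2076 and 1957 FPKM in control libraries and 5705, 6489 and 5657 FPKM with sulfasalazine (chromosome 10, 128548114 to 128549305). The means were 1771 ± 429 and 5950 ± 467 FPKM, a 3.36-fold rise (limma log2 change 1.78 with SE 0.22, adjusted p 0.00021). Rpl6, encoding another large-subunit protein, rose from 219, 326 and 319 FPKM to 963, 1061 and 858 FPKM (chromosome 5, 121204481 to 121209241). That was a 3.34-fold rise (limma log2 change 1.75 with SE 0.18, adjusted p 7.1e-05). In both genes every treated library lay far above every control. Rpl37a rose from 264, 318 and 375 FPKM to 726, 695 and 561 FPKM (log2 change 1.05 with SE 0.16). Rpl31, near the tunnel exit but not on the tunnel list above, rose from 413 ± 121 to 731 ± 55.5 FPKM. Its exons overlap Tbc1d8, on the opposite strand, and other genes over 25.3% of their bases.

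After Rpl3, the large-subunit falls were led by Rpl13a, Rpl21 and Rpl5. Rpl13a, known also for a regulatory role outside the ribosome in interferon-treated cells, stood at 72.3, 89.2 and 88 FPKM and at 46.4, 38.6 and 42.8 FPKM (log2 change -0.95 with SE 0.13). Its level is low for a ribosomal protein gene, and its exons overlap other gene entries, mainly Gm45713, over 35.4% of their bases. Rpl21 fell from 320, 418 and 401 FPKM to 187, 225 and 223 FPKM (limma log2 change -0.84 with SE 0.14, adjusted p 0.00097). Rpl18 fell from 1600 ± 233 to 1060 ± 85.8 FPKM. Smaller falls, of -0.48 to -0.37 on the log2 scale, were those of Rpl32, Rpl10a, Rpl34, Rpl30 and Rpl35a. Each of these 5 calls was lost in at least 5 of the 15 alternative fits.

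In the small subunit, 6 of 30 genes rose and 4 fell, 33.3% called against 66.5% of all genes tested. Rps4x, an X-linked small-subunit gene, rose from 341, 449 and 319 FPKM to 640, 693 and 731 FPKM (limma log2 change 0.91 with SE 0.15, adjusted p 0.00094). Rps27, encoding a zinc-finger protein, rose from 338, 400 and 328 FPKM to 698, 638 and 511 FPKM (log2 change 0.78 with SE 0.15). Rps29, Rps21 and Rps3a1 rose by 0.71, 0.68 and 0.66 on the log2 scale, and the calls of Rps29 and Rps21 were lost in 2 and 4 of the 15 alternative fits. Of the 50-base words of Rps3a1, 71.0% occur in other genes' transcripts. Rps3, at the mRNA entry and also a DNA repair protein, rose from 425 ± 96.3 to 590 ± 38.3 FPKM, a call lost in 7 of the 15 alternative fits.

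The small-subunit falls included Rps6, the substrate of the S6 kinases. It measured 1464, 1748 and 2145 FPKM in control libraries and 1144, 1214 and 1101 FPKM with sulfasalazine (limma log2 change -0.61 with SE 0.17, adjusted p 0.012). Rps27a, whose protein is made as a fusion with ubiquitin, fell from 386, 547 and 543 FPKM to 297, 272 and 318 FPKM (limma log2 change -0.72 with SE 0.16, adjusted p 0.0041). For both genes all 3 treated libraries lay below the lowest control. Rps13 fell from 364 ± 55.4 to 260 ± 20.7 FPKM, and Rps10 from 12.4 ± 2.73 to 8.10 ± 1.16 FPKM, calls lost in 3 and 9 of the 15 alternative fits.

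At the mRNA exit, Rps14, Rps26 and Rps28 had log2 fold changes from -0.23 to 0.32 and did not pass. At the mRNA entry, Rps2 stood at 2648 ± 767 and 2949 ± 234 FPKM and Rps23, which takes part in decoding, at 1560 ± 241 and 1273 ± 124 FPKM. Neither passed. Rps15, near the decoding site, stood at 3161 ± 425 and 2730 ± 382 FPKM. Of 19 members in which mutations cause Diamond-Blackfan anaemia, an inherited failure of red cell production, 4 rose, 4 fell and 11 did not pass. Their median log2 fold change was -0.19, and 42.1% were called, against 66.5% of all genes tested. Rps19, the first such gene to be identified, stood at 369 ± 64.2 and 358 ± 30.8 FPKM.

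Calls went in both directions in both subunits. Of the 45 tested large-subunit genes 9 rose and 11 fell, 44.4% called, with a median log2 fold change of 0.03. Of the 30 small-subunit genes 33.3% were called, with a median of -0.04. Over all genes tested 66.5% were called. The 5 changes of at least 1 on the log2 scale were all in the large subunit (Rpl41, Rpl6, Rpl23a, Rpl37a and Rpl3). The summed FPKM of the Rpl genes over that of the Rps genes was 1.59, 1.59 and 1.56 in the controls and 1.72, 1.74 and 1.71 with sulfasalazine. The groups do not overlap in this ratio. Without Rpl41, however, the ratio was 1.52 ± 0.0220 and 1.52 ± 0.0221 (SD, n = 3 per group), so the difference between the groups was carried by that 1 gene.

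**Figure D3:**
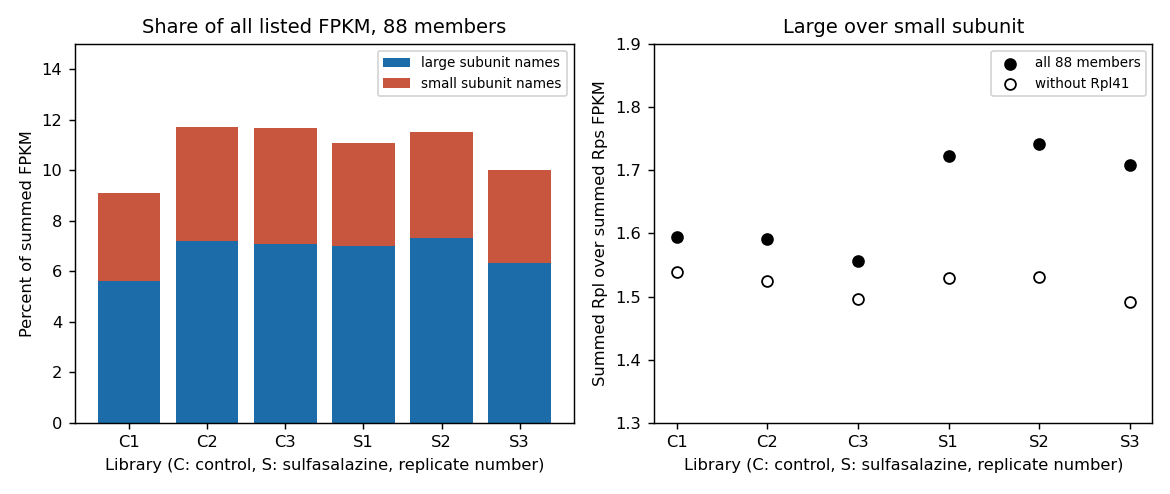
Left, percent of all FPKM in each library (C control, S sulfasalazine, with replicate number) taken by the 88 genes, split by subunit name. Right, summed Rpl over summed Rps FPKM on an axis that does not start at 0. With all genes the treated libraries lie at 1.71 to 1.74 and the controls at 1.56 to 1.59, and without Rpl41 the groups overlap.

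Of the 4 paralogues tested 3 fell, Rps27l, Rpl22l1 and Rpl7l1, and none of their parent genes fell. Over all genes tested 29.3% fell. Rps27l, a p53-induced copy of Rps27, measured 368, 321 and 339 FPKM in control libraries and 197, 199 and 170 FPKM with sulfasalazine (chromosome 9, 66946086 to 66949516; limma log2 change -0.86 with SE 0.11, adjusted p 0.00027). Since Rps27 rose, Rps27l went from 52.1%, 44.5% and 50.8% of the pair's summed FPKM to 22%, 23.8% and 24.9%. The pair was close to even in the controls and led by Rps27 in every treated library.

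Rpl22l1 can take the place of Rpl22 in the ribosome, and Rpl22 protein is known to repress its message. It fell from 29.8, 48.7 and 54.4 FPKM to 15.4, 11.8 and 18.7 FPKM (chromosome 3, 28805436 to 28807424; limma log2 change -1.45 with SE 0.25, adjusted p 0.0011). Rpl22 itself stood at 263 ± 27.0 and 239 ± 21.1 FPKM and did not pass (adjusted p = 0.34). Rpl7l1, whose product acts in large-subunit assembly in the nucleolus, fell from 165, 152 and 167 FPKM to 76.9, 77.1 and 86.3 FPKM (chromosome 17, 46773907 to 46782672; log2 change -1.0 with SE 0.10). Rpl7 stood at 404, 611 and 370 FPKM and at 416, 559 and 589 FPKM and did not pass (adjusted p = 0.45).

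The difference between paralogue and parent was tested itself, as a log2 difference within each library. It was lower with sulfasalazine by -1.64 (SE 0.15) for Rps27l over Rps27, by -1.32 (SE 0.30) for Rpl22l1 over Rpl22 and by -1.19 (SE 0.30) for Rpl7l1 over Rpl7. In these 3 pairs the 3 treated libraries lay below the 3 controls. An exact two-sided permutation test gave p = 0.1 for each, the smallest that 3 against 3 libraries allows, and 0.125 after Benjamini-Hochberg adjustment over 5 pairs. This test therefore cannot bring any of these differences past 0.05 with 3 libraries in each group. The remaining pairs were Rpl36al over Rpl36a (-0.32, exact p = 0.1), with Rpl36al at 0.371 to 1.07 FPKM, and Rps27rt over Rps27 (-0.67, exact p = 0.4). Rps27rt, a retrotransposed copy, was uneven within both groups, at 50.9, 84.8 and 139 FPKM and at 115, 129 and 51.9 FPKM. It shares 91.1% of its words with other transcripts.

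**Figure D4:**
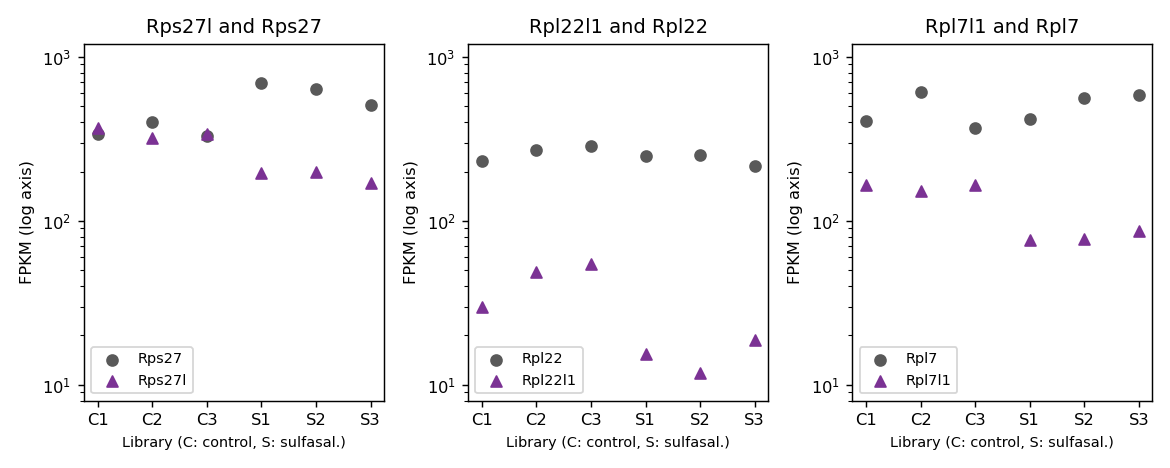
FPKM per library on a log axis for 3 paralogues (triangles) and their parent genes (circles), with C for control and S for sulfasalazine. Each paralogue is lower in all 3 treated libraries than in any control, while Rps27 is higher and Rpl22 and Rpl7 overlap between groups.

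Several members are listed at levels far below the rest. Rpl24, a large-subunit protein gene that every ribosome uses, was listed at 0.193, 0.181 and 0 FPKM in controls and at 0, 0.189 and 0.293 FPKM with sulfasalazine and was not tested. Its exons overlap other entries, mainly Gm28037, over 47.0% of their bases and share 51.8% of their words. Rps10 and Rpl13a were the other standard genes with a mean below 100 FPKM, and 28.7% of the exonic bases of Rps10 lie in other gene entries, mainly the read-through RPS10-NUDT3. The levels of these 3 genes are given as listed. The 5 genes with pseudogene names stood at means of 2.09 to 48.8 FPKM and none passed. Of their 50-base words 65.0% to 96.5% occur in transcripts of other genes. Rps23rg1 was listed at 0 to 0.174 FPKM and not tested. Rps19bp1, which encodes a protein that binds Rps19, fell from 181, 195 and 246 FPKM to 108, 123 and 98.0 FPKM (log2 change -0.91 with SE 0.14).

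Shared sequence is common in this family, whose processed pseudogenes are scattered through the genome. The median share of 50-base words found in another gene's transcripts was 24.0% over the 75 genes, and 6 genes reached 50% or more. Among the 30 genes under 20%, 9 rose and 6 fell. Among the 45 at 20% or above, 6 rose and 9 fell. The shares over all genes tested were 37.2% higher and 29.3% lower. Whether shared sequence plays a part in the direction was not tested. Rpl41 (17.6%), Rpl37a (19.5%), Rpl39 (6.81%), Rpl11 (17.7%), Rpl21 (14.9%), Rps27l (11.2%), Rpl22l1 (14.6%) and Rpl7l1 (6.75%) were under that limit. Rpl6 (27.7%), Rpl3 (35.0%), Rps4x (41.2%) and Rps6 (43.8%) were above it.

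Among these 75 genes, rises were more numerous at short lengths and falls at long ones. The length used for each gene was computed from recovered reads and FPKM. Of the 25 shortest genes (393 to 632 bases) 8 rose and 1 fell, of the 25 next in length (638 to 820 bases) 5 rose and 6 fell, and of the 25 longest (841 to 1906 bases) 2 rose and 8 fell. The median log2 fold changes were 0.11, 0.15 and -0.14. Among other genes of the same lengths rises outnumbered falls in all 3 ranges: 85 rose and 32 fell of 189 in the shortest, 202 and 98 of 429 in the middle, and 1949 and 1436 of 4926 in the longest. Their median log2 fold changes were 0.29, 0.35 and 0.13. The excess of falls among the longest members was thus not seen in other genes of that length, which were not matched on level. Among all 1355 genes with a mean of at least 100 FPKM, whatever their length, falls outnumbered rises (537 against 416). Whether members and other genes differ in this was not tested. Across the 75 members Pearson's r between log2 length and log2 fold change was -0.27, and over all 10338 genes tested it was -0.09. These correlations are across genes that share the same 6 libraries and are given as descriptions. The part of length in the result was not tested.

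**Figure D5:**
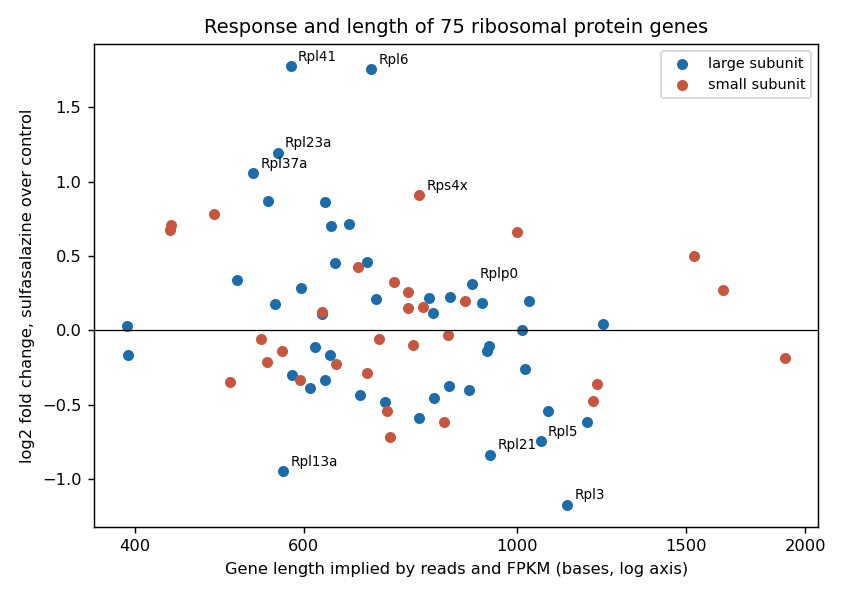
Log2 fold change of the 75 tested standard genes against the gene length implied by reads and FPKM, on a log axis, coloured by subunit. Rpl41, Rpl23a and Rpl37a lie among the short genes and Rpl3, Rpl5 and Rpl21 among the longer ones, while Rpl13a is short and fell.

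The standard genes are spread over 19 chromosomes, with 14 of them on chromosome 7. Of the tested genes 29 host small nucleolar RNAs, guides of ribosomal RNA modification, on the same strand and within the gene's bounds, 55 in all. Of these hosts 7 rose and 8 fell, and of the other 46 genes 8 rose and 7 fell. Of all genes tested, 37.2% rose and 29.3% fell.

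Core ribosomal protein genes that the name rule leaves out were read from the same fit. Rpsa, the laminin receptor of the small subunit, measured 1106, 1904 and 1882 FPKM in control libraries and 2341, 2400 and 2317 FPKM with sulfasalazine, without overlap, and did not pass (limma adjusted p = 0.053). Rack1, a signalling scaffold on the small subunit, and Fau, a ubiquitin-like fusion, did not pass.

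Of 24 other messages known to carry a TOP tract, Rpsa, Rack1 and Fau among them, 6 rose, 4 fell and 14 did not pass. That is 41.7% called, against 66.5% of all genes tested, with a median log2 fold change of 0.05. Eef1a1, the elongation factor that delivers aminoacyl-tRNA, rose from 2561, 3424 and 2786 FPKM to 10114, 10729 and 8790 FPKM (limma log2 change 1.76 with SE 0.21, adjusted p 0.00015). Eif3f, an initiation factor subunit, rose from 143, 184 and 224 FPKM to 541, 513 and 430 FPKM. Npm1, a nucleolar chaperone of ribosome assembly, fell from 574, 831 and 464 FPKM to 195, 195 and 254 FPKM. All 3 changes were without overlap between groups.

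A list of genes around mTORC1, LARP1 and cap binding, which also holds Myc, Larp4 and Larp7, had 19 tested genes. Of these 4 rose and 11 fell, 78.9% called against 66.5% of all genes tested, with a median log2 fold change of -0.49. The list holds activators and inhibitors of mTORC1 together, so this median gives no direction for the pathway. Myc, a transcription factor that drives ribosome synthesis, fell from 624, 686 and 663 FPKM to 130, 133 and 121 FPKM (log2 change -2.35 with SE 0.10). Eif4e, the cap-binding protein gene, fell by 1.66 on the log2 scale and Eif4ebp2, its inhibitor, rose from 40.2, 33.7 and 43.8 FPKM to 115, 111 and 113 FPKM. Larp1 stood at 53.9, 63.9 and 52.8 FPKM and at 43.1, 42.6 and 50.7 FPKM and did not pass (limma adjusted p = 0.052).

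Of 20 genes for chaperones, importers and regulators of ribosomal proteins, 14 fell and 1 rose, 75% called against 66.5% of all genes tested (29.3% lower), with a median log2 fold change of -0.84. The list includes Rps19bp1. Ltv1, which escorts Rps3 onto the small subunit, fell from 94.2, 104 and 82.7 FPKM to 21.5, 19.9 and 17.4 FPKM (log2 change -2.20 with SE 0.13). Mdm2, the p53 ligase that free Rpl5 and Rpl11 can inhibit, fell from 516, 306 and 202 FPKM to 50.5, 56.5 and 62.3 FPKM. Mdm2 was uneven among the controls. Aamp, a counterpart of a yeast chaperone of the Rpl10 protein, was the 1 gene that rose, from 36.2, 37.5 and 47.7 FPKM to 216, 216 and 195 FPKM.

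In the authors' deposited table, 13 of the 75 standard genes were higher and 20 lower at an adjusted p under 0.05, against 55.0% of all its genes called. All 13 and 15 of the 20 carry the same call here. The authors' deposited table gives log2 fold changes of 1.65 for Rpl41, 1.64 for Rpl6 and -1.30 for Rpl3.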

How the data were processed

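The submitters' processing notes list fastp (0.23.0), HISAT2 (2.2.1) and HTSeq (0.13.5), besides edgeR and the build mm39, without saying what each did; whether counting used strand is not stated. Per the labels, libraries were rRNA-depleted with a kit for bacteria. What the authors deposited is 1 table with an FPKM value per library and gene, group mean FPKM, a library-size-adjusted signal, and the authors' own log2 fold change and p-value. A second deposited table, a selection of genes, was not used. All 88 members had the coordinates of GENCODE M21 (GRCm38).

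Whole reads were recovered from FPKM steps, nearest to the deposited signal, for 100.0% of genes (tolerance 0.00001 reads). For 1537 genes more than 1 set of reads was possible. The test covered genes reaching 1 FPKM in 3 or more of the 6 libraries and was run on log2(FPKM + 1) with limma 3.58.1 in R 4.3.3 (intensity trend, two-sided), Benjamini-Hochberg over all genes tested, threshold 0.05. Fold changes of low genes are understated by the pseudocount. In 5 simulations of the sulfasalazine against control comparison (200 changed genes among 10277 to 10302, dispersion 0.02), recovery was 97.4% for a log2 change of 1 and 100% for a log2 change of 2. Changes below 1, the size of most calls among the standard ribosomal protein genes, were not simulated. The 200 changed genes were also far fewer than the 6878 called in the data.

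Results were recomputed without a filter, with a 5 FPKM filter, a 0.1 pseudocount, quantile or median-of-ratios scaling, no trend, the replicate block, libraries left out, stricter thresholds, members with little shared sequence, and limma voom on recovered reads. The removal of Rpl41 was chosen after seeing the data. Shared words were sought on both strands of GENCODE M21 transcripts. Named genes were those of the functional lists, every paralogue and parent, and per subunit the 5 largest called rises and falls and the 3 most abundant. Each pathway list gave up to 3 called genes. Rpl18, Rpl31, Rps13, Rps19, Larp1, Rpl32, Rpl10a, Rpl34, Rpl30, Rpl35a, the low-level genes and those listed by sequence share were added after their values were seen. The members and lists were chosen with earlier results of these data known. Single values of some genes are not reported here.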

Additional observations from a re-analysis of the deposited data

How the results depend on the processing

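No replicate pairing was found: same-numbered control and sulfasalazine libraries deviated from their group means with correlations of 0.04, -0.19 and -0.17. With the replicate block 13 standard ribosomal protein genes rose and 10 fell, and 6420 genes were called in all. That is 30.7% of the standard genes called, against 62.1% of all genes tested. A minimum absolute log2 fold change of 1 left 3430 of 6878 calls over all genes, and 4 rises and 1 fall among the standard ribosomal protein genes. At an adjusted p under 0.01, 10 of the 75 tested standard genes rose and 5 fell, and 5454 of all 10338 genes tested were called. Among the 30 members with under 20% shared words 9 rose and 6 fell, against 6 and 9 among the 45 at 20% or more. This difference was not tested, and of all genes tested 37.2% rose and 29.3% fell. Leaving out 1 library at a time gave 11 to 16 rises and 8 to 21 falls among the standard genes. These fits called 25.3% to 44% of the standard genes and 54.9% to 74.7% of all genes tested. The subunit ratio difference of 0.144 became -0.059 without the 3 most abundant members, 0.305 with under 20% shared words and -0.00224 without Rpl41. Of 935 alternatives for 55 named genes, 51 lost a call and 14 gained one, and 16 changed sign. The sign changes touched 10 genes, none of them called, and none passed the threshold: under quantile normalization Rplp0 (-0.28), Rpl22 (0.064) and Rps2 (-0.018); under median-of-ratios scaling Rpl36a (-0.0014) and Rpl9 (-0.069); without replicate 3 of both groups Rpl7 (-0.043), Rps14 (0.056) and Rps28 (0.058). The rest came from leaving out 1 library: Rpl36a ranged from -0.0019 to 0.19, Rpl8 ranged from -0.0067 to 0.28, Rpl9 ranged from -0.020 to 0.12, Rps2 ranged from -0.033 to 0.40, Rps27rt ranged from -0.24 to 0.52. Rps27rt over Rps27 turned from -0.67 to 0.016 without replicate 3 of both groups; the cause was not tested.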
